A study of Mus musculus with 6 samples.

Results

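The cluster of miR-143 and miR-145a was followed through small RNA libraries of c-kit+ cardiac progenitor cells. Its members, mmu-miR-143-3p, mmu-miR-143-5p, mmu-miR-145a-5p and mmu-miR-145a-3p, were chosen by name as the 5p and 3p arms of both hairpins among 1978 known mature mouse miRNAs in the deposited count table. All 4 passed the filter on low counts that left 619 miRNAs for testing. The cells were isolated from hearts of healthy adult male wild-type C57BL/6 mice, 4 to 6 weeks old, with magnetic beads that carry an antibody to c-kit, a receptor tyrosine kinase on the cell surface. The hypoxia group held 3 libraries of cells kept for 12 hours under hypoxia in culture, and the control group held 3 libraries labelled 0 hours. All groups share the genotype, the tissue and the sort. The sources used here give no oxygen level, and the control samples also carry the word hypoxia in their treatment field. If the control cells were not cultured equally long, effects of hypoxia and of culture time cannot be told apart. By the extraction protocol the RNA came from exosomes and by the design text from cells, and this was not settled.

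The columns carry a digit, read as 0 for the control labels and 1 for hypoxia, and a letter A, B or C. All directions depend on that reading of the digits. Where the values of 3 libraries of a group are listed, they stand in the order of the letters. The labels call the samples of a group biological replicates but tie none to a separate animal or culture, so that p-values reflect library-to-library spread, part of which may be technical. Totals of known miRNA counts lay between 12285970 and 16975987 per library, and a count of 0 allowed at most 0.244 CPM in the shallowest library, as 3 counts of its total. CPM are counts scaled to a common library size, here with the trimmed mean of M-values (TMM). Mature miRNAs are of about the same length, so levels of different miRNAs were compared without a length scale. Such comparisons carry 2 limits. Some miRNAs of identical or near-identical sequence have the same values in all 6 libraries, and differences in ligation and amplification between sequences were not measured.

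miR-143 and miR-145 are cut from one primary transcript that smooth muscle cells make under serum response factor and its coactivator myocardin. Both restrain genes of the proliferative state, among them Klf4 and Klf5 for miR-145-5p and Elk1 for miR-143-3p, and they help smooth muscle cells stay contractile. In the heart they are known from vascular smooth muscle, pericytes and fibroblasts. Of each hairpin one arm is usually loaded as the guide, which is the 3p arm for miR-143 and the 5p arm for miR-145, and the other arm is usually degraded.

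Both hairpins lie on the minus strand of mouse chromosome 18 in GRCm38, by the GENCODE vM21 annotation. Mir143 spans 61649196 to 61649258 and Mir145a spans 61647825 to 61647894, with 1301 bases between them. The long noncoding RNA gene Carmn, which is known as a host of this cluster in smooth muscle, is annotated on the same strand from 61649625 to 61665537 and ends 366 bases before the miR-143 hairpin, so that neither hairpin falls inside an annotated exon or intron of that gene model.

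miR-143-3p was one of the most abundant miRNAs in these libraries, and the other arms were lower. miR-143-3p stood at 41047, 28250.1 and 21692 CPM in hypoxia libraries, and at 49630.3, 25879 and 21691 CPM in control libraries. The means were 30329.9 ± 9843 CPM in hypoxia and 32400.3 ± 15068 CPM in control (SD, n = 3 each). The A library was the highest of each group, and the groups overlapped over nearly their whole range. The arm ranked between 4 and 6 among all known miRNAs in every library. By mean over 6 libraries it was 5th with 31365 ± 11439 CPM (SD), next below let-7f-5p with 35455 ± 4133 CPM and next above miR-99a-5p with 29483 ± 5501 CPM. Those differences from its neighbours were smaller than its own spread.

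miR-145a-5p, the guide arm of the second hairpin, ranked between 82 and 111. Its level was 564, 309.8 and 372 CPM in hypoxia libraries, and 599, 309.2 and 454 CPM in control libraries. The means were 415 ± 132 CPM in hypoxia and 454 ± 144.7 CPM in control (SD, n = 3 each). Here too the A library led in each group, while the B libraries were lowest and nearly equal. The other arm of that hairpin, miR-145a-3p, reached 341, 233 and 230.0 CPM in hypoxia libraries and 387, 200.5 and 171 CPM in control libraries. It averaged 268 ± 63.2 CPM in hypoxia and 253 ± 117 CPM in control (SD, n = 3 each), was highest in the A library of both groups, and overlapped between them.

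miR-143-5p, the less used arm of the first hairpin, was the lowest member. Its level was 179, 107 and 116 CPM in hypoxia libraries, against 191, 70.2 and 68.6 CPM in control libraries. Its means were 134 ± 39.3 CPM in hypoxia and 109.9 ± 70.1 CPM in control (SD, n = 3 each). Hypoxia libraries B and C both lay above control libraries B and C, but control library A was the highest of all 6, so the groups overlapped.

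**Figure D1:**
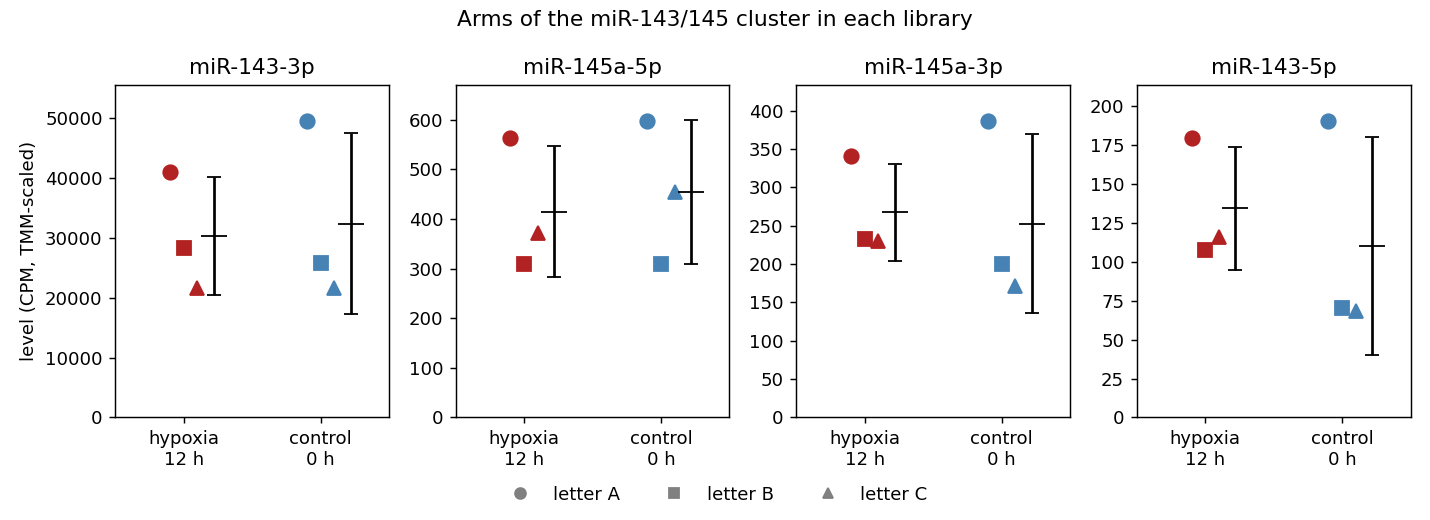
Level of each arm (CPM, linear axis from 0, a scale of its own per panel) in the 3 hypoxia and the 3 control libraries, with one symbol per column letter and the mean with its SD as a bar. In every panel the A libraries are the highest of their group, and the 2 groups overlap.

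Within a library the order of the arms was the same everywhere. miR-143-3p exceeded miR-145a-5p by 6.15 ± 0.36 on the log2 scale (SD over 6 libraries), a 71.0-fold ratio. miR-145a-5p exceeded miR-145a-3p by 0.75 ± 0.34, and miR-145a-3p exceeded miR-143-5p by 1.15 ± 0.23 on the same scale. Each of these 3 steps had the same sign in 6 of 6 libraries (two-sided exact sign-flip permutation test, p = 0.031, the smallest that 6 libraries allow, and p = 0.031 adjusted over the 3 steps). Libraries of one letter vary together, so the 6 are not independent. Over the means of the 3 letters each step was positive in 3 of 3, and the two-sided exact sign-flip permutation test gave p = 0.25, the smallest that 3 letters allow. The steps and their directions were taken from the mean levels in the same 6 libraries. These p-values are therefore no independent support for the order.

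The 4 arms together took 4.49%, 2.78% and 2.34% of known miRNA counts in hypoxia libraries, and 5.11%, 2.37% and 2.32% in control libraries. The exact Clopper-Pearson 95% intervals are narrow, for example 4.48% to 4.50% for hypoxia library A, but they cover counting error only. The means were 3.20% ± 1.14 in hypoxia and 3.27% ± 1.60 in control (SD, n = 3 each). They differed by -0.06 percentage points, far less than the spread between libraries (exact permutation test, two-sided, p = 0.9, where 0.1 is the smallest possible). Nearly all of this came from miR-143, whose 2 arms made up between 97.2% and 98.1% of the cluster's counts.

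Hypoxia gave no call for any of the 4 arms. In edgeR's quasi-likelihood test with Benjamini-Hochberg adjustment 0 of 4 arms passed, as did 0 of all 619 tested miRNAs (0.0%), of which 42 (6.79%) had an unadjusted p under 0.05. limma-voom called 0 of 619. DESeq2 was given all 1322 miRNAs with any count and filters by level itself, so that its number is not comparable with the 619. It called 1, which was not a member. The guide arms gave log2 fold changes of -0.10 (SE 0.33) for miR-143-3p and -0.13 (SE 0.30) for miR-145a-5p. The other arms gave 0.29 (SE 0.42) for miR-143-5p and 0.08 (SE 0.33) for miR-145a-3p. The edgeR adjusted p was 0.99 for each. The hypoxia and control libraries overlapped for 4 of 4 arms, whereas they did not overlap for 80 of the 619 tested miRNAs (12.9%). Of the 4 arms 2 lay above 0, with a median of -0.01, whereas 317 of the 619 tested miRNAs (51.2%) did, with a median of 0.01. The standard errors of the 4 arms, from 0.30 to 0.42, were above the median of 0.28 over all tested miRNAs.

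Fitting the letter as a block removed much of that spread. Over the tested miRNAs same-lettered libraries deviated together, and the standard errors of the members came down to 0.10 for miR-143-3p, 0.11 for miR-145a-5p, 0.14 for miR-145a-3p and 0.17 for miR-143-5p. In this fit edgeR called 14 of 619 miRNAs (2.26%) and 0 of the 4 arms. The guide arms stayed close to 0, with blocked log2 fold changes of -0.05 for miR-143-3p (edgeR adjusted p = 0.84) and -0.12 for miR-145a-5p (edgeR adjusted p = 0.62). miR-145a-3p gave 0.15 (edgeR adjusted p = 0.62). For miR-143-5p the value was 0.42 with an edgeR adjusted p of 0.19, and its unadjusted p of 0.031 stood beside 132 of the 619 miRNAs (21.3%) with an unadjusted p under 0.05.

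The values within letters show where the arms parted. miR-143-5p differed by -0.09 (A), 0.61 (B) and 0.76 (C) on the log2 CPM scale, hypoxia minus control, and miR-145a-3p by -0.18 (A), 0.22 (B) and 0.43 (C). Both arms were lower in hypoxia for letter A and higher for B and C. miR-143-3p differed by -0.27 (A), 0.13 (B) and 0.00 (C), and miR-145a-5p by -0.09 (A), 0.00 (B) and -0.29 (C). Without control library A, the library with the highest level of all 4 arms, the log2 fold changes were 0.32 for miR-143-3p, 0.09 for miR-145a-5p, 0.50 for miR-145a-3p and 0.92 for miR-143-5p, with edgeR adjusted p of 0.64, 0.92, 0.48 and 0.26. The sign of miR-143-3p also turned without hypoxia library C (0.07), that of miR-145a-5p without hypoxia library B (0.01), and that of miR-145a-3p without hypoxia library A (-0.13), control library B (-0.08) or control library C (-0.14). miR-143-5p stayed above 0 in all 19 alternatives run, but at 0.02 without hypoxia library A and at 0.03 without either control library B or C.

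**Figure D2:**
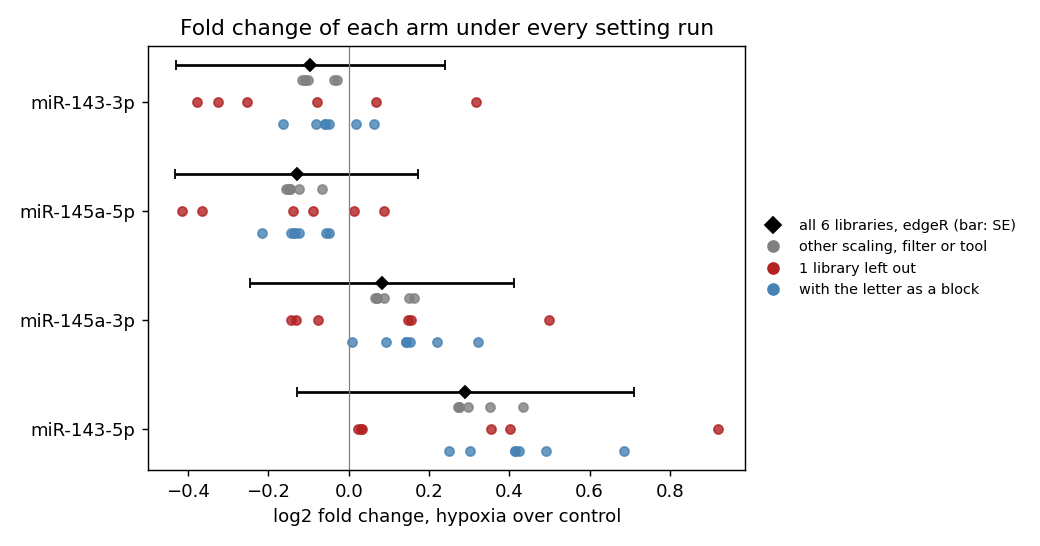
Log2 fold change of each arm, hypoxia over control, on the horizontal axis. Diamonds give the edgeR fit on all 6 libraries with its SE, grey points other scalings, filters and tools, red points fits without 1 library, and blue points fits with the letter as a block. The values of miR-143-3p, miR-145a-5p and miR-145a-3p fall on both sides of 0, and those of miR-143-5p between 0.02 and 0.92.

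The 2 hairpins differed in how strongly one arm prevailed. miR-143-3p outnumbered miR-143-5p 229-, 263- and 187-fold in hypoxia libraries, and 260.1-, 369- and 316-fold in control libraries. miR-145a-5p outnumbered miR-145a-3p only 1.65-, 1.33- and 1.62-fold in hypoxia libraries and 1.55-, 1.54- and 2.66-fold in control libraries, so that the arm regarded as the passenger made up a large part of that hairpin's counts. The 5p arm held between 57.1% and 72.7% of miR-145a counts, and the 5p arm of miR-143 between 0.271% and 0.533%. Among 189 hairpins with both arms past the filter, 16 were more unequal than miR-143 and 159 more unequal than miR-145a. The median hairpin had an 8.28-fold difference between its arms.

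**Figure D3:**
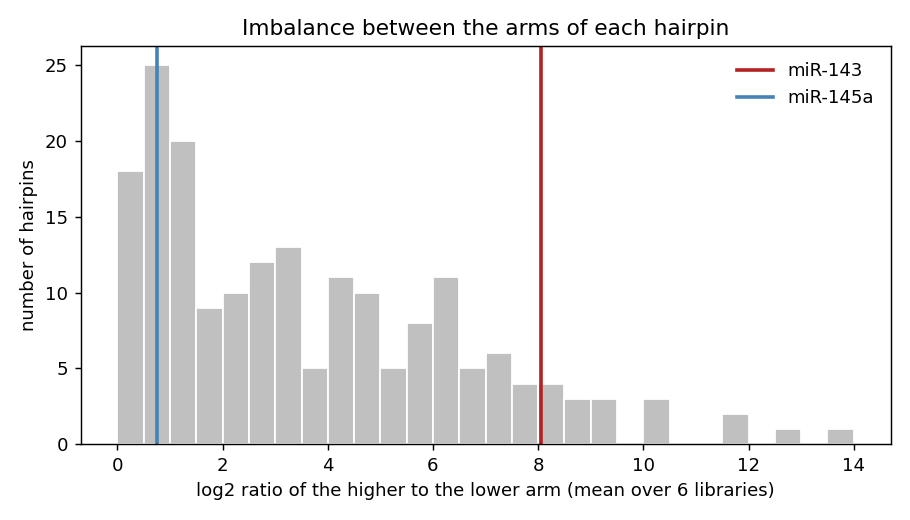
Distribution over 189 hairpins of the log2 ratio of the higher to the lower arm, as the mean over 6 libraries, with the number of hairpins on the vertical axis. miR-143, at 8.05, lies in the upper tail and miR-145a, at 0.75, near the low end.

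The share of the miR-143-5p arm was higher in hypoxia in each letter. Log2 ratios of miR-143-3p to miR-143-5p were 7.84, 8.04 and 7.54 in hypoxia libraries, and 8.02, 8.52 and 8.30 in control libraries, with a difference of the means of -0.48. Within letters the ratio differed by -0.18 (A), -0.49 (B) and -0.76 (C). Across the groups the values just overlapped, since hypoxia library B lay above control library A. The two-sided exact permutation test gave p = 0.2 (smallest possible 0.1), or 0.8 adjusted over the 4 ratios tested, and the exact sign-flip permutation test over 3 pairs gave p = 0.25, the smallest possible. A 3p to 5p ratio lower in the hypoxia library of all 3 letters was seen for 36 of the 189 hairpins (19.0%) and a higher one for 41 (21.7%), so that such a pattern was common.

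For the remaining ratios no direction held in all letters. Log2 ratios of miR-145a-5p to miR-145a-3p were 0.73, 0.41 and 0.69 in hypoxia libraries and 0.63, 0.63 and 1.41 in control libraries, where control library C stood apart. The difference of -0.28 (two-sided exact permutation p = 0.6, adjusted p = 1.0) came to -0.02 without that library. Counts of the whole miR-143 hairpin exceeded those of the miR-145a hairpin 45.6-, 52.3- and 36.2-fold in hypoxia libraries, and 50.5-, 50.9- and 34.8-fold in control libraries. On the log2 scale this ratio differed between the groups by -0.02 (two-sided exact permutation p = 1.0). It was lowest for letter C in both groups. The ratio of the 2 guide arms, miR-143-3p over miR-145a-5p, differed by 0.08 (two-sided exact permutation p = 0.8, adjusted p = 1.0).

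**Figure D4:**
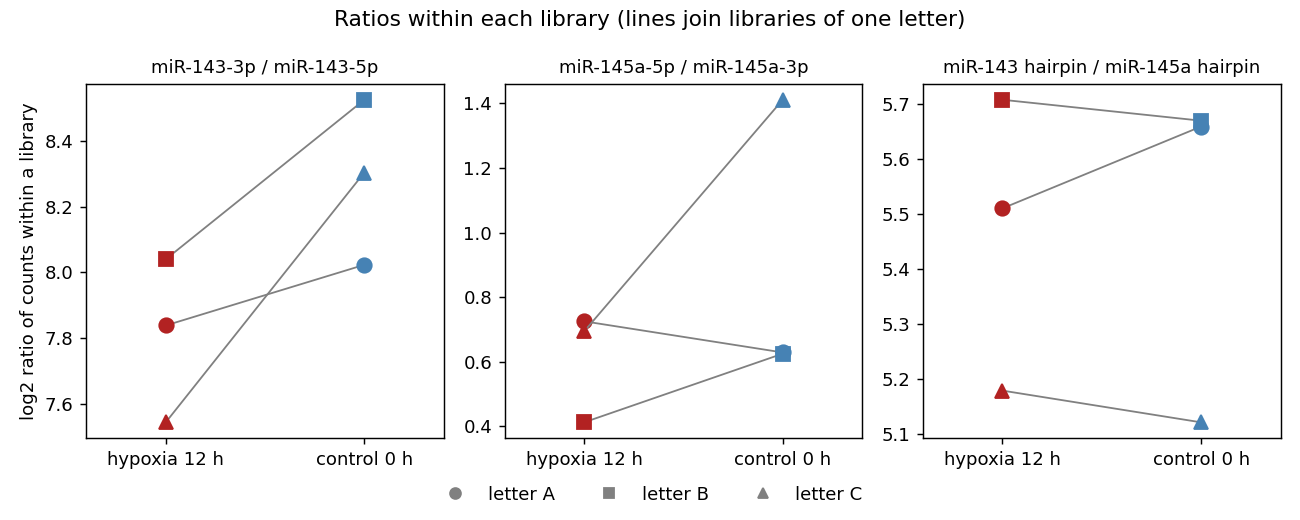
Log2 ratios of counts within a library, for the arms of miR-143, the arms of miR-145a and the 2 hairpins, in hypoxia and control libraries, with a line joining the libraries of one letter. The miR-143 lines all run lower on the hypoxia side, from -0.18 to -0.76, whereas the lines of the other panels run both ways.

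The largest differences in level went with the letter. In hypoxia, library A exceeded the mean of B and C 1.64-fold for miR-143-3p, 1.65-fold for miR-145a-5p, 1.47-fold for miR-145a-3p and 1.60-fold for miR-143-5p. In control the same ratios were 2.09, 1.57, 2.09 and 2.75. Both A libraries lay above the other 4 libraries for 4 of 4 members, and so they did for 125 of the 619 tested miRNAs (20.2%). The sources used here do not say what the letters stand for.

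**Figure D5:**
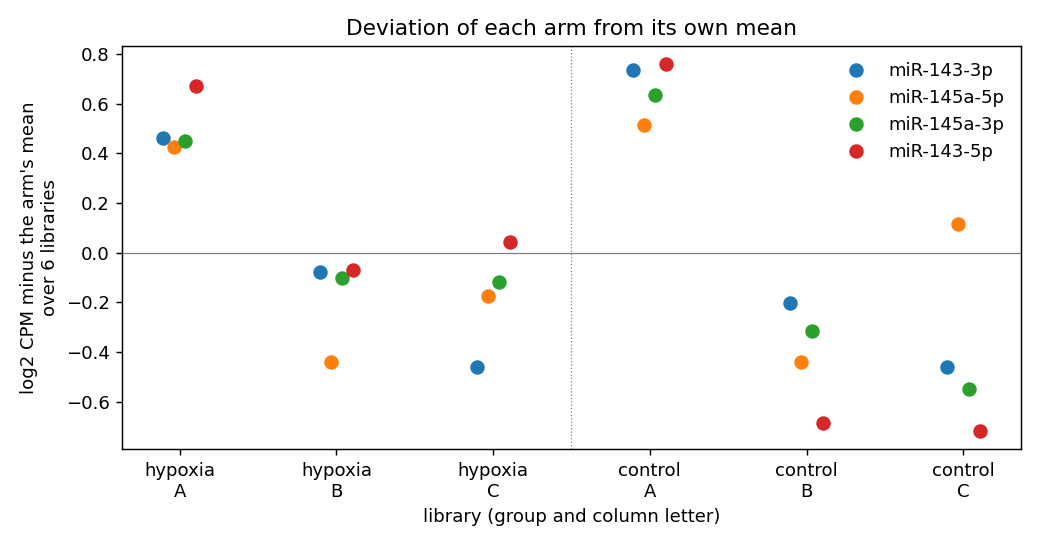
Log2 CPM of each arm minus its own mean over 6 libraries, by library, with hypoxia libraries left and control libraries right of the dotted line. All 4 arms lie above 0 in both A libraries. In the C libraries the arms part, most widely in control, where miR-145a-5p lies above 0 and the other arms below it.

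Some other miRNAs of fibroblasts and smooth muscle were highest in the same libraries. Of the 7 such markers outside the cluster, 6 were highest in both A libraries, as were 125 of the 619 tested miRNAs (20.2%). The 6 are the miR-199a and miR-199b arms and both miR-214 arms, which come from the antisense strand of dynamin genes in mesenchymal cells. Since miR-199a-3p and miR-199b-3p have the same values, the 6 are not separate observations. Of the 19 miRNAs of smooth muscle state read further below, 1 was highest in both A libraries and 5 were lowest there. The exception was miR-21a-5p, the most abundant of the 7, which was highest in the B library of each group. The 7 together summed to 286902, 323640 and 267542 CPM in hypoxia libraries. In control libraries they summed to 283082, 365682 and 297447 CPM, so their sum, which is mostly miR-21a-5p, did not follow the A pattern. miR-214-3p stood at 414, 165 and 235 CPM in hypoxia libraries, and at 353, 164 and 223 CPM in control libraries. miR-199a-3p, whose counts equal those of miR-199b-3p, stood at 5106, 2930.3 and 2948 CPM in hypoxia libraries and at 4098, 2067 and 2278 CPM in control libraries. In such bulk samples more cells of a type and more of its RNA per cell cannot be told apart, and the part of other cells in the levels of the cluster was not tested.

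Of 17 tested markers of endothelium, cardiomyocytes, blood, epithelium, and neural tissue or liver, 2 were highest in both A libraries, miR-142a-3p and miR-9-5p. Of all tested miRNAs 20.2% were. The 2 endothelial miR-126a arms summed to between 200661 and 238099 CPM in hypoxia and between 227197 and 249641 CPM in control. By mean over 6 libraries miR-126a-3p ranked 2nd among all known miRNAs, at 221513 ± 17399 CPM (SD). The 6 cardiomyocyte markers summed to 104 to 176 CPM in hypoxia and 77.2 to 172 CPM in control, 7 blood markers to 42.6 to 56.8 CPM in hypoxia and 49.4 to 55.0 CPM in control, and 5 epithelial markers to 5.89 to 7.55 CPM in hypoxia and 4.37 to 9.23 CPM in control. The 3 neural and liver markers summed to 59.9 to 97.2 CPM in hypoxia and 53.0 to 121 CPM in control. No marker was at 0 in all 6 libraries, but only 17 of the 23 listed for these other cell types passed the filter. miR-208b-3p, miR-144-3p and miR-141-3p were at 0 in some libraries, and none of their group means exceeded 0.134 CPM. No miRNA among the markers defines c-kit+ progenitors, so the label of the cells could not be checked from these data.

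The arms of the cluster varied together unevenly. The permutation p-values of all 6 pairs treat the 6 libraries as independent, though libraries of one letter vary together, so they overstate the evidence. Across 6 libraries miR-143-5p and miR-145a-3p, the less used arm of each hairpin, had Pearson's r = 0.97 (exact permutation p = 0.0028, adjusted p = 0.017 over 6 pairs) and Spearman's rho = 0.94 (exact permutation p = 0.017, adjusted p = 0.050). Without the 2 libraries farthest from the median of miR-143-5p, control A and control C, r was 0.95, with hypoxia library A still included. After subtraction of each letter's mean r was 0.94 for this pair and 0.50 for miR-143-3p and miR-145a-3p. It was 0.34 for the 2 arms of miR-143 and 0.27 for the 2 guide arms. It was below 0 for miR-145a-5p with miR-143-5p (-0.71) and with miR-145a-3p (-0.69). With 2 libraries per letter, each r after this subtraction rests on only 3 differences within letters, and none was tested. miR-143-3p and miR-145a-3p had r = 0.94 (exact permutation p = 0.0097, adjusted p = 0.029) and rho = 0.94 (exact permutation p = 0.017, adjusted p = 0.050), and without both A libraries r was 0.44, so that relation rests on them.

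The 3 pairs with miR-145a-5p passed no test. For miR-143-3p and miR-145a-5p r was 0.70 (exact permutation p = 0.15, adjusted p = 0.15) and rho 0.49 (exact permutation p = 0.36, adjusted p = 0.36), and without both A libraries r was -0.86. The 2 arms of miR-145a had r = 0.69 (exact permutation p = 0.14, adjusted p = 0.15) and rho = 0.60 (exact permutation p = 0.24, adjusted p = 0.29), and -0.68 without the A libraries. The 2 arms of miR-143 had r = 0.84 (exact permutation p = 0.040, adjusted p = 0.081) and rho = 0.83 (exact permutation p = 0.058, adjusted p = 0.12), and r was 0.11 without the A libraries, on which that relation rests. miR-143-5p and miR-145a-5p had r = 0.69 (exact permutation p = 0.14, adjusted p = 0.15) and rho = 0.66 (exact permutation p = 0.17, adjusted p = 0.26). Without control A and control C, r for this pair was 0.89, but hypoxia library A stayed in. For this pair r was not computed without both A libraries, and it was -0.71 after subtraction of each letter's mean. With 2 libraries a letter holds too few for a correlation of its own.

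The miRNAs whose log2 CPM followed the guide arms most closely, out of 361 others with a mean of at least 10 CPM, were named without a test. For miR-143-3p they were miR-100-5p (r = 0.98), miR-485-5p (r = 0.98), miR-300-3p (r = 0.95), miR-381-3p (r = 0.95) and miR-379-5p (r = 0.94), over 6 libraries that share the A pattern. miR-145a-3p came 8th, miR-143-5p 39th and miR-145a-5p 73rd in that order. For miR-145a-5p the closest were miR-181d-5p (r = 0.997), miR-574-5p (r = 0.99), miR-431-5p (r = 0.98), miR-204-5p (r = 0.97) and miR-434-3p (r = 0.97), while miR-143-3p came 76th.

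Of these 10 miRNAs 6 have their gene on chromosome 12 of GRCm38 between the start of Dlk1 and the end of Dio3, at 109452823 to 110281097, an imprinted region with many miRNAs that holds 54 of the 297 compared miRNAs that could be placed by name (18.2%). That region was singled out after the names were seen. miR-300-3p, for example, stood at 396, 208 and 196 CPM in hypoxia libraries, and at 518, 172 and 194 CPM in control libraries. None of the 10 passed edgeR's test between the groups (adjusted p = 0.99 for each, without the block), and the closest to miR-145a-5p, miR-181d-5p, varied little, between 346 and 430 CPM.

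Mature sequences were found for 9 of the 10 in the RefSeq table for GRCm38.p6, and they are shown because they let the followers be compared by seed, the bases 2 to 8 in capitals. The 9 have 9 different seeds, so they are not members of one seed family. miR-300-3p and miR-381-3p are nearly alike in sequence, however, and how reads matching both were counted is not given.
miR-100-5p: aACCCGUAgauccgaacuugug
miR-300-3p: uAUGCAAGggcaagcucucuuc
miR-381-3p: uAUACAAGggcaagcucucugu
miR-379-5p: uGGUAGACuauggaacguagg
miR-181d-5p: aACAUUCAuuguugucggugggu
miR-574-5p: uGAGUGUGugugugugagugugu
miR-431-5p: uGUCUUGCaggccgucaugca
miR-204-5p: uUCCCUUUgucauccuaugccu
miR-434-3p: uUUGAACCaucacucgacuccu

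A list of 19 miRNAs linked to the state of smooth muscle cells was read beside the cluster. All 19 were tested, 0 passed edgeR in either direction without or with the letter block, against 0.0% of all tested miRNAs without the block and 2.26% with it. Of the 19, 9 lay above 0, with a median of -0.03, against 51.2% of all tested miRNAs. miR-221-3p and miR-222-3p, which promote proliferation of smooth muscle cells and target c-kit itself, averaged 2439 ± 132 and 1182 ± 95.7 CPM in hypoxia, and 2485 ± 392 and 1655 ± 473 CPM in control (SD, n = 3 each). Their log2 fold changes were -0.03 (SE 0.17) and -0.48 (SE 0.23). The largest values of the list were 1.17 (SE 0.45) for miR-133b-3p, at 2.49 ± 0.80 CPM in hypoxia and 1.11 ± 0.57 CPM in control (SD, n = 3 each), and 0.64 (SE 0.23) for miR-29c-3p, at 73.8 ± 15.8 CPM in hypoxia and 47.3 ± 6.60 CPM in control (SD, n = 3 each). With the block their edgeR adjusted p was 0.11 and 0.086. miR-29b-3p, which like miR-29c-3p represses collagen genes, gave 0.55 (SE 0.27). miR-133a-3p, a muscle miRNA that restrains smooth muscle proliferation, gave 0.56 (SE 0.37) at only 14.2 ± 6.39 CPM in hypoxia and 9.63 ± 3.51 CPM in control (SD, n = 3 each). Only 1 of the 19, miR-204-5p, was highest in both A libraries, and 5 were lowest there, as were 97 of all 619 tested miRNAs (15.7%).

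miR-145b, a separate gene at 69022199 to 69022273 on chromosome 18, is not part of the cluster. It had 12, 8 and 2 counts in hypoxia libraries and 4, 10 and 1 counts in control libraries, did not pass the filter, and came to at most 0.249% of the miR-145a-5p counts of a library.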

How the data were processed

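The authors deposited raw read counts per known mature miRNA as whole numbers, with 1 column per library. bcl2fastq 2.0, DESeq2 and mm10 appear in the submitters' processing notes, without their roles. Aligner, counting program, miRNA release and the treatment of multiply matching reads are not given there. The table of predicted miRNAs was not used.

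R 4.3.3 and edgeR 4.0.16 were used (filterByExpr, TMM, quasi-likelihood test, Benjamini-Hochberg at 0.05 over all tested miRNAs), with limma 3.58.1 (voom) and DESeq2 1.42.0 as alternatives. The fit was also run on counts simulated without a letter effect, which cannot show how it handles the spread between letters. Standard errors were taken from the log2 fold change and the F statistic, as the ratio of its size to the root of F. Ratios used counts plus 0.5 and log2 CPM a prior count of 2. Shares and ratios were compared by exact permutation in Python 3.11.15. By column letter, deviations from group means correlated at 0.52 (A), 0.43 (B) and 0.28 (C), all over 0.1, and unlike letters at -0.44 to 0.12, so the letters were taken to pair the libraries. Deviations within a group sum to 0, so positive values for same letters push those for unlike letters below 0, and part of the contrast is built in. The pairing comes from column names and values, the same values that the blocked fits use. The members and lists were chosen with earlier results of these data known. Beside the members, the text names the 5 miRNAs with the highest r to each guide arm, the listed smooth muscle and marker miRNAs, neighbours in level, and miR-145b.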

Additional observations from a re-analysis of the deposited data

How the results depend on the processing

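No arm passed under any of 19 alternatives. The closest was miR-143-5p, at 0.69 with the replicate block without pair A (edgeR adjusted p = 0.056). It gave 0.49 with the block and library totals only (edgeR adjusted p = 0.060), a setting chosen after seeing the data. The log2 fold change of miR-143-3p was 0.063 with the replicate block without pair A and 0.018 with the block and library totals only, against -0.10. Leaving out 1 library gave -0.38 to 0.32 for miR-143-3p, -0.42 to 0.089 for miR-145a-5p, -0.14 to 0.50 for miR-145a-3p and 0.02 to 0.92 for miR-143-5p. Differences in log2 ratio then ran from -0.20 to 0.13 between hairpins, from -0.19 to 0.24 between guide arms and from -0.61 to -0.34 between the miR-143 arms, and those in the share of counts from -0.71 to 0.86 percentage points. The order of arms kept its sign, with means of 6.08 to 6.26, 0.62 to 0.82 and 1.07 to 1.19, but 5 libraries cannot give p below 0.0625. With the replicate block, an exact sign-flip test of letter means chosen after seeing the data, the steps stayed at 6.15, 0.75 and 1.15 with p = 0.25, the smallest possible. miRNAs called numbered 0 without each library, 4 of 1322 without the filter and 1 of 1322 with DESeq2. With the replicate block they numbered 14 of 619, and 23 of 627 with the block without pair B. Settings chosen after seeing the data gave 55 of 619 with the block and library totals only, 13 of 619 with the block and RLE factors, and 37 of 1322 with the block in DESeq2. Counts out of 1322 include miRNAs that the filter removes, so they are not comparable with the rest. With the block and without pair A or pair C 0 were called. The cause was not tested. Counts of miR-143-5p, from 914 to 2984, limit precision far less than the spread between libraries.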
